A study of Mus musculus with 12 samples.

Results

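Matrix metalloproteinases (MMPs) and their tissue inhibitors (TIMPs) were followed as a set of 9 genes, the 6 proteases Mmp2, Mmp3, Mmp9, Mmp10, Mmp13 and Mmp14 and the 3 inhibitors Timp1, Timp2 and Timp3. They were chosen by name among 32498 named genes, and all 9 were measured and passed the filter on low values. The libraries were bulk RNA-seq of tongue from C57BL/6 mice given the carcinogen 4-nitroquinoline 1-oxide (4NQO) at 100 µg/mL in the drinking water for 16 weeks, a chemical model of oral squamous carcinoma. From week 4 of the carcinogen, mice received either gallic acid (GA), a plant polyphenol, at 100 mg/kg by gavage 5 times per week or the vehicle by the same schedule, and 6 libraries of each group were analysed. Both groups therefore carried the carcinogen, and no library came from a tongue without it. The labels describe the tissue as tumor together with tumor-associated tissue and do not give the tumor content of a library. Each library was taken as 1 mouse.

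MMPs are zinc-dependent endopeptidases that cut collagens, laminins, fibronectin and other matrix proteins, and most are secreted as inactive precursors. TIMPs bind the active site of MMPs and block it. In squamous carcinoma, fibroblasts, keratinocytes and infiltrating leukocytes each express a different selection of these genes, so a level in bulk tissue adds up several cell types. Mmp2 and Mmp9 are the gelatinases, which degrade denatured collagen and basement membrane collagen. Mmp3 and Mmp10 are the stromelysins, with a broad range of matrix substrates. Mmp13 is a collagenase that cuts fibrillar collagen, and Mmp14 is a membrane-anchored MMP that activates the Mmp2 precursor together with Timp2. Timp1 is an inducible secreted inhibitor, Timp2 a largely constitutive inhibitor, and Timp3 an inhibitor that stays bound to the matrix.

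Totals recovered from the deposited values were 18042208 to 21771447 reads per vehicle library and 21238604 to 25193214 reads per GA library. Tongue epithelium was well represented, with the suprabasal keratin Krt13 between 5579 and 22197 FPKM (fragments per kilobase of transcript and per unit of sequencing depth, a level per length), and so was muscle, with Acta1 between 419.5 and 4011 FPKM. Vehicle libraries 4 and 5 stood apart from the other 10 in many of the genes described here. The differences of the 9 members, the list counts and part of the correlations below are therefore also given without them. Correlations among marker genes and with the nearest genes are given over all 12 libraries only. Tongue gland transcripts were high in vehicle libraries 3 and 5 and in GA library 2 (sum of 4 gland genes, at most 27487 FPKM in the vehicle group and 31781 FPKM in the GA group). Y-linked transcripts were present in 4 of 6 vehicle and 1 of 6 GA libraries, so sex and treatment were partly confounded, and with a term for them the log2 difference of Mmp13 was -3.33 and that of Timp2 0.03. The part of gland tissue in the results was not tested beyond a fit with the gland gene Lipf as a covariate. In that fit 8 of the 9 members had a negative difference and 0 were called. The log2 difference was -0.65 for Timp1 and -0.73 for Mmp3, against -1.16 and -1.07 without the term.

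Mmp13 (chromosome 9 of GRCm38, 7272514 to 7283331), Mmp3 (7445822 to 7455975) and Mmp10 (7502352 to 7510240) lie within 1 cluster of MMP genes, all on the plus strand. The other members are dispersed, with Mmp2 on chromosome 8 (92827291 to 92853420), Mmp9 on chromosome 2 (164940780 to 164955850), Mmp14 on chromosome 14 (54431612 to 54445364), Timp1 on chromosome X (20870166 to 20874735), Timp2 on chromosome 11 (118301069 to 118355740) and Timp3 on chromosome 10 (86300372 to 86349506). Timp1 and Timp3 each lie inside a synapsin gene of the opposite strand. Timp1 shared 0 exon bases with Syn1, whereas 21.3% of the exon bases of Timp3 were shared with Syn3. Whether reads were counted by strand is not given, so the reads of Timp3 include an unknown part that may belong to Syn3.

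The bases just upstream of the start sites are shown for the 3 clustered genes, whose levels were high together in vehicle libraries 4 and 5. They are also shown for Timp1, which was high there too and lies on another chromosome. The r of Mmp3 with Mmp10 and Mmp13 was 0.80 and 0.78 over the 12 libraries and 0.41 and 0.29 without those 2. The promoter table used here, from RefSeq (GRCm38.p6), was matched for 7 of the 9 members, and Mmp2 and Mmp9 were not analysed in it. Capitals mark matches to the AP-1 consensus TGANTCA, which is its own reverse complement and so covers both strands, and to the TATA box letters TATAAA on the gene's strand. The sequences are the 250 bases before the start, 5′ to 3′.
Mmp3, chr9:7445572-7445821, plus strand: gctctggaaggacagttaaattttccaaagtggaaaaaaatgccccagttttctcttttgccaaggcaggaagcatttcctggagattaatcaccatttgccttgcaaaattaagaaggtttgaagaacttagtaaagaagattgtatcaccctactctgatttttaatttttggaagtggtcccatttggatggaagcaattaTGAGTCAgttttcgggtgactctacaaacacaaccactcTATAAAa
Mmp10, chr9:7502092-7502341, plus strand: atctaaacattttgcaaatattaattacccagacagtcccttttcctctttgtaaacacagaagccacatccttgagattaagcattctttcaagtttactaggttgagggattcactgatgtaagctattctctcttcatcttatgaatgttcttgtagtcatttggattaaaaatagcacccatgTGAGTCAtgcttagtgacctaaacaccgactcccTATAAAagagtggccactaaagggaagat
Mmp13, chr9:7272264-7272513, plus strand: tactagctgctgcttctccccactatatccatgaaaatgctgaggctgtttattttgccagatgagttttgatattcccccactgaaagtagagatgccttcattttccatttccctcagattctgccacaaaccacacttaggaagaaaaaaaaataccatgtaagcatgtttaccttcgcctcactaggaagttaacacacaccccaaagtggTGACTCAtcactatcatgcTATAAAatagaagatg
Timp1, chrX:20869916-20870165, plus strand: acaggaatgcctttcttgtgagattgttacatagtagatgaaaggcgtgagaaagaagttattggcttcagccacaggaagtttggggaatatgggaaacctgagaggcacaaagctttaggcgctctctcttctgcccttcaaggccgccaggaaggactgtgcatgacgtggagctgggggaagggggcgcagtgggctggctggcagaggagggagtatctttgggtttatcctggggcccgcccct

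Mmp3, Mmp10 and Mmp13 each held 1 AP-1 match followed by 1 TATA match within this window. The AP-1 match began 46 bases before the start in Mmp3, 63 in Mmp10 and 35 in Mmp13. The TATA match began 7, 29 and 16 bases before it in the same order. These distances depend on the annotated start of each gene. Timp1, Timp2, Timp3 and Mmp14 held 0 matches to either. Among all 32851 RefSeq promoters of the same length, 6.75% held the AP-1 letters, 7.59% the TATA letters and 0.791% both. Another motif, the ETS-type element AGGAAG on either strand, was found in 5 of the 7 members and in 29.5% of all promoters, and it overlapped neither of the others. These matches are a description of letters and were not tested against binding.

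The 9 genes spanned a wide range of levels. By the median over the 12 libraries, Timp2 (29.8 FPKM), Mmp2 (22.3 FPKM) and Mmp14 (13.6 FPKM) were the most abundant, followed by Mmp3 (5.68 FPKM), Timp3 (4.14 FPKM) and Timp1 (2.08 FPKM). Mmp13 (0.898 FPKM), Mmp9 (0.595 FPKM) and Mmp10 (0.485 FPKM) were the lowest. Of the 8 neighbouring pairs in this order, only Mmp2 above Mmp14 (11 of 12 libraries) and Timp1 above Mmp13 (11 of 12 libraries) differed by more than 1 SD of their log2 difference. Timp2 was above Mmp2 in 10 of 12 libraries, and Mmp13, Mmp9 and Mmp10 could not be ordered. By the mean, Mmp3 came first (30.9 FPKM), through vehicle libraries 4 and 5.

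**Figure D1:**
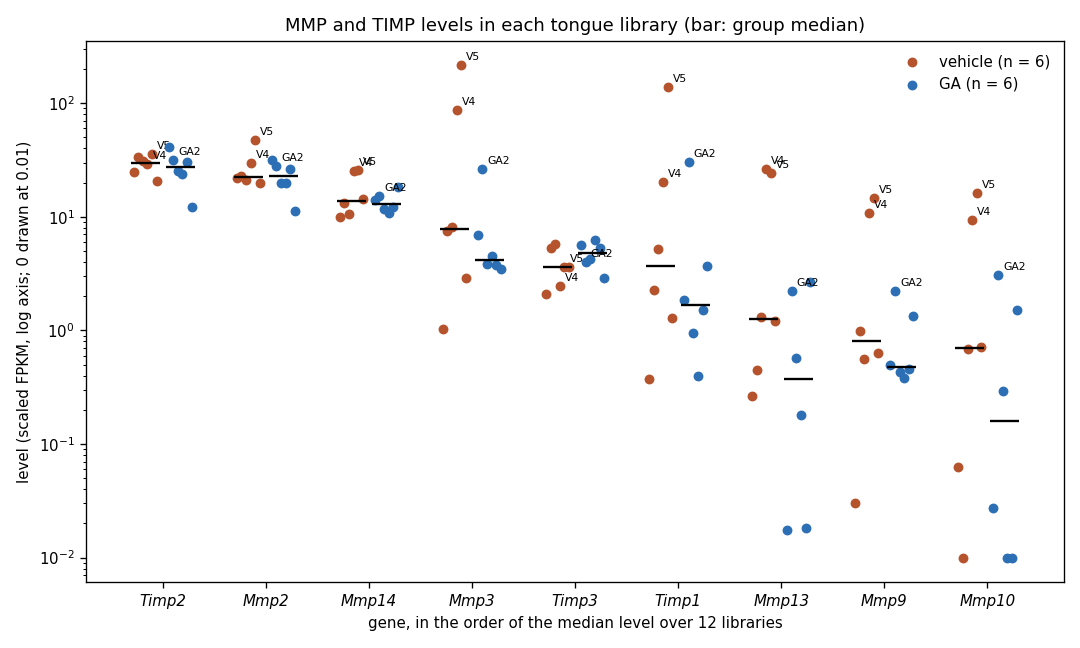
Level of each gene in scaled FPKM on a log axis for 6 vehicle (red-brown) and 6 GA (blue) libraries, with bars at the group medians and the vehicle libraries 4 and 5 and GA library 2 labelled. Timp2, Mmp2, Mmp14 and Timp3 spread over less than 5-fold, whereas Mmp3, Timp1, Mmp13, Mmp9 and Mmp10 spread over 2 or more orders of magnitude, and vehicle 4 and 5 lie highest in the MMPs among them.

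Mmp2, the gelatinase made mainly by fibroblasts, lay in a narrow band. Its lowest, median and highest levels were 19.7, 22.3 and 47.4 FPKM in the vehicle group and 11.2, 23.0 and 31.7 FPKM in the GA group. The groups overlapped, with vehicle library 5 highest and GA library 6 lowest. Mmp14, the membrane-anchored activator of Mmp2, had 9.90, 13.7 and 26.0 FPKM with vehicle (lowest, median, highest) and 10.9, 13.1 and 18.3 FPKM with GA. Vehicle libraries 4 and 5 were above the other 10, in which the groups overlapped.

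The stromelysin Mmp3 varied 210-fold. Its lowest, median and highest levels were 1.03, 7.76 and 215.9 FPKM with vehicle and 3.49, 4.18 and 26.3 FPKM with GA. Vehicle library 5 (215.9 FPKM) and vehicle library 4 (86.3 FPKM) exceeded all others and GA library 2 came next, while vehicle library 1 was the lowest of the 12. Mmp10, the other stromelysin, had 0, 0.694 and 16.3 FPKM with vehicle (lowest, median, highest) and 0, 0.159 and 3.09 FPKM with GA. The zeros in vehicle library 2 and in GA libraries 4 and 5 were 0 reads, which allow levels of up to 0.0948, 0.0760 and 0.0854 FPKM at 3 reads. The same 3 libraries as for Mmp3 were the highest.

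The collagenase Mmp13 had 0.263, 1.27 and 26.5 FPKM with vehicle (lowest, median, highest) and 0.0174, 0.376 and 2.69 FPKM with GA. Vehicle libraries 4 and 5 carried 1644 and 1432 reads of it, and GA libraries 1 and 5 carried 1 read each. The gelatinase Mmp9, abundant in neutrophil granules and also made by tumor cells, had 0.0306, 0.806 and 14.6 FPKM with vehicle (lowest, median, highest) and 0.380, 0.477 and 2.24 FPKM with GA. Again vehicle libraries 4 and 5 were the highest, and the remaining 4 vehicle libraries lay within or below the range of the GA group.

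Timp1, the inducible inhibitor, was high in the same libraries. Its lowest, median and highest levels were 0.371, 3.73 and 140.2 FPKM with vehicle and 0.398, 1.69 and 30.6 FPKM with GA. Here GA library 2 exceeded vehicle library 4 (20.4 FPKM). Timp2 had 20.7, 30.1 and 35.7 FPKM with vehicle (lowest, median, highest) and 12.3, 27.7 and 41.2 FPKM with GA. Timp3 had 2.10, 3.61 and 5.76 FPKM with vehicle and 2.90, 4.81 and 6.26 FPKM with GA. Neither Timp2 nor Timp3 set vehicle libraries 4 and 5 apart.

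In 5 of the 9 members (Mmp3, Mmp9, Mmp10, Mmp13 and Mmp14) vehicle libraries 4 and 5 held the 2 highest levels, against 3.70% of all 16828 tested genes with a single row. This count was made after the values were seen and carries no test. Among lists described below it was 4 of 7 genes of the plasmin axis, 3 of 6 neutrophil genes, 2 of 7 fibroblast genes and 3 of 11 matrix substrates. It was 2 of 11 other MMPs, 1 of 8 AP-1 genes, and 0 of 7 epithelial, 0 of 5 macrophage and 0 of 5 skeletal muscle genes. Summed over the 6 MMPs, vehicle libraries 4 and 5 reached 188.2 and 344.3 FPKM, and the other 10 ranged from 33.1 to 77.2 FPKM. Summed over the 3 TIMPs, they reached 52.2 and 179.5 FPKM, against 18.8 to 66.0 FPKM elsewhere. The ratio of the MMP sum to the TIMP sum was 3.61 and 1.92 in vehicle libraries 4 and 5 and 1.02 to 2.04 in the other 10, with 2.04 in GA library 6, so vehicle library 5 was inside that range. By group, the median ratio was 1.37 with vehicle and 1.17 with GA.

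The make-up of the pools changed with the level. Mmp2 and Mmp14 together made up 29.3% and 21.3% of the MMP sum in vehicle libraries 4 and 5 and 56.2% to 95.8% in the others. Mmp3 alone made up 62.7% in vehicle library 5. Timp1 made up 78.1% of the TIMP sum in vehicle library 5, 39.1% in vehicle library 4 and 46.4% in GA library 2, against at most 19.5% in the remaining 9 libraries. Timp2 was the largest part in every library except vehicle 5 (19.9%), with 56.3% in vehicle library 4 and 47.6% in GA library 2.

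**Figure D2:**
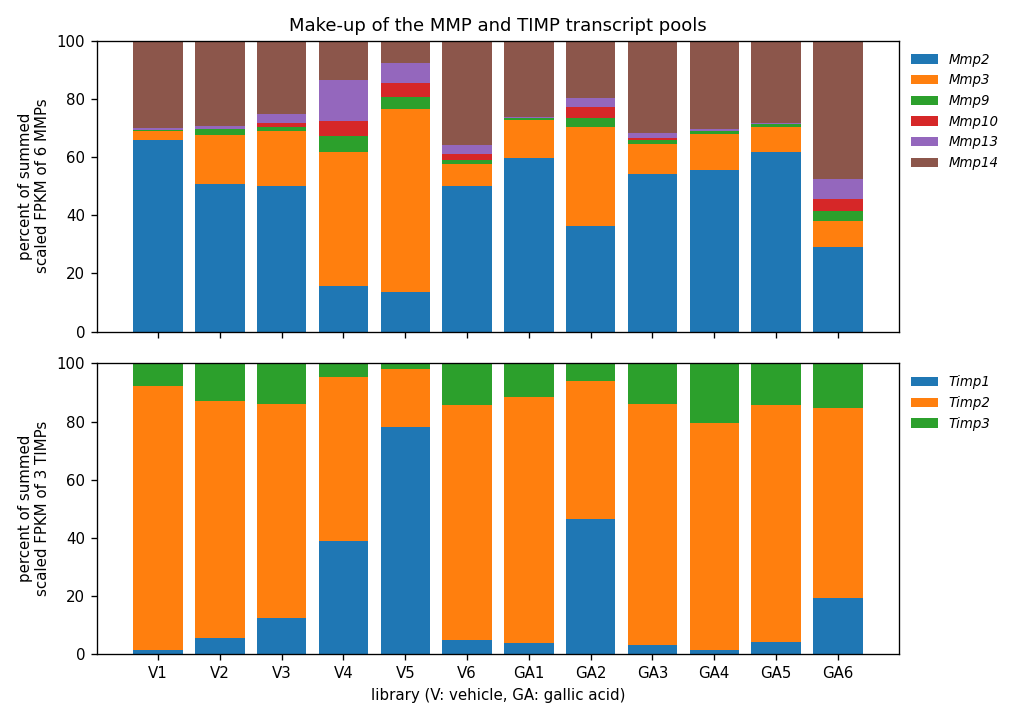
Share of each gene in the summed scaled FPKM of the 6 MMPs (upper panel) and of the 3 TIMPs (lower panel), with 1 bar per library. Mmp2 and Mmp14 fill most of the upper bar outside vehicle libraries 4 and 5, and Timp1 exceeds 30% of the lower bar only in vehicle libraries 4 and 5 and GA library 2.

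Against this spread, GA-treated and vehicle libraries did not separate in any of the 9 genes. A gene was called when limma's Benjamini-Hochberg adjusted p was under 0.1 and its log2 fold change was 0.58 or more in size. Of 16852 genes tested, 0 were called (0%), and so 0 of the 9 members. The study reported significant genes at the same limits with another test, edgeR's quasi-likelihood framework, which was not repeated here. At an unadjusted p below 0.05, limma counted 364 genes (2.16%) and 0 of the 9 members, and limma with voom weights on the recovered reads gave 330 genes, 0 calls after adjustment and 0 members at that unadjusted level. The limma adjusted p was 0.9999 for all 9 members.

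The largest difference in size was that of Mmp13, with a mean of 8.98 ± 12.7 FPKM under vehicle against 0.947 ± 1.19 FPKM under GA (SD, n = 6 each). On the log2 scale it differed by -2.30 (standard error 1.23, 95% confidence interval -4.98 to 0.38). The vehicle median exceeded 4 of 6 GA libraries, and the exact permutation test over all assignments of the libraries gave a two-sided p = 0.132. Mmp10 differed by -1.55 (standard error 1.35, exact permutation p = 0.320). Mmp3 averaged 53.6 ± 86.0 FPKM under vehicle and 8.12 ± 8.98 FPKM under GA, with an SD above the mean in both groups, and differed by -1.07 (standard error 1.13, exact permutation p = 0.420). Timp1 (-1.16, standard error 1.31, exact permutation p = 0.450) and Mmp9 (-0.87, standard error 1.02, exact permutation p = 0.437) were of the same order. For each of these 5 genes the interval of the difference included 0 and also decreases of more than 8-fold on the log2(FPKM + 0.1) scale. The intervals of Mmp3, Mmp9, Mmp10 and Timp1 also included increases of more than 2-fold (upper limits 1.38, 1.33, 1.39 and 1.68). On a log2(FPKM + 0.01) scale the difference was larger in size for Mmp13 (-2.99) and Mmp10 (-2.23). It was similar for Timp1 (-1.18) and Mmp3 (-1.06) and smaller for Mmp9 (-0.70).

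The other 4 members spread less between libraries and had narrower intervals. Mmp2 differed by -0.25 on the log2 scale (95% confidence interval -0.83 to 0.33), Mmp14 by -0.19 (-0.73 to 0.36) and Timp2 by -0.16 (-0.69 to 0.38). Timp3 was the only member with a positive difference, at 0.36 (-0.21 to 0.92), and 5 of 6 GA libraries lay above its vehicle median (exact permutation test, two-sided p = 0.236). For these 4 genes the intervals excluded a 2-fold change in either direction with all 12 libraries. For Timp3 the upper limit passed 2-fold in 7 other settings, at most 1.10 on the log2 scale with a term for Y-linked transcripts, and for Mmp2 the lower limit passed it with a Krt14 term (-1.01).

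Leaving out vehicle libraries 4 and 5, a choice made after the values were seen, turned the sign of 6 of the 9 differences. Mmp3 became 0.65, Mmp9 0.67, Mmp10 0.21, Mmp14 0.19, Timp1 0.51 and Mmp2 0.02 on the log2 scale, while Mmp13 went to -0.62 and Timp2 to -0.07 and Timp3 to 0.23. All 9 intervals again included 0. The vehicle spread of Mmp3 was 2.89 (SD of log2 levels) against 1.10 with GA, and that of Mmp9 2.61 against 0.95.

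**Figure D3:**
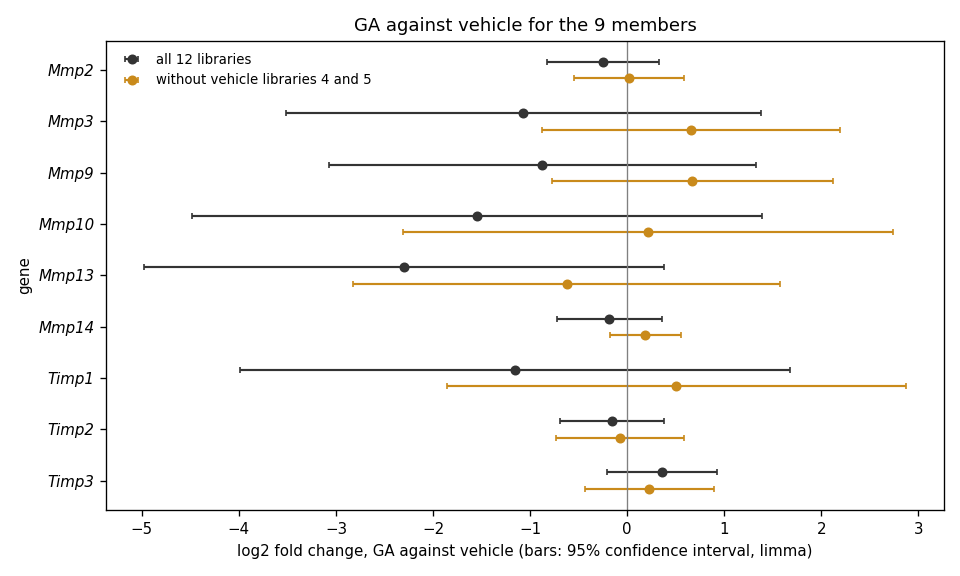
Log2 fold change of GA against vehicle with its 95% confidence interval (limma) for each gene, with all 12 libraries (black) and without vehicle libraries 4 and 5 (ochre). Every interval crosses 0, and the points of Mmp2, Mmp3, Mmp9, Mmp10, Mmp14 and Timp1 lie left of 0 with all libraries and right of it without those 2.

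Which cell type each gene followed was examined by its correlation, over the 12 libraries, with Col1a1 (fibrillar collagen of fibroblasts), Krt14 (basal keratinocyte keratin) and S100a9 (calprotectin subunit of neutrophils, also made by stressed keratinocytes). Of 27 relations, 9 had an adjusted p below 0.05, of which 7 were with Col1a1, 2 with Krt14 and 0 with S100a9. In bulk tissue, more cells of a type and more RNA per cell cannot be told apart.

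The 3 reference genes were first set against other markers of their cell types, in 21 relations. Col1a1 went with Col3a1 (r = 0.96, permutation p = 1e-05, the smallest that the permutations can give, Spearman's rho 0.92) and with Postn (r = 0.85, permutation p = 0.00035), but not with the collagen-binding proteoglycan Dcn (r = 0.27, permutation p = 0.391). Krt14 went with Krt5 (r = 0.86, permutation p = 0.0002) and with Krt6a (r = 0.82) and not with the suprabasal keratins Krt13 (r = -0.34) and Krt4 (r = -0.53). S100a9 went with its partner S100a8 (r = 0.99, permutation p = 1e-05) and with Krt14 (r = 0.69, permutation p = 0.00925), and not with the neutrophil receptors Cxcr2 (r = 0.23, permutation p = 0.467) and Csf3r (r = 0.21, permutation p = 0.524), nor with Retnlg (r = 0.14, permutation p = 0.694). S100a9 ran from 130.0 to 1594 FPKM and was highest in vehicle library 6, where Cxcr2, Csf3r and Retnlg were not raised. The neutrophil surface marker Ly6g was at 0 in 10 libraries and reached 0.0465 FPKM in vehicle library 4 and 0.194 FPKM in vehicle library 5. S100a9 therefore did not follow the other neutrophil genes in these libraries, and the mean log2 level of Cxcr2, Csf3r and Retnlg was added as another, after the data were seen.

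Timp1 had the closest relation with Col1a1 (r = 0.93, permutation p = 6e-05, adjusted p = 0.00121; rho = 0.92, permutation p = 3e-05), and r was 0.82 without the 2 libraries farthest from the Col1a1 median, vehicle 4 and 5. It held within the 6 vehicle libraries (r = 0.99, exact permutation p = 0.00139) and within the 6 GA libraries (r = 0.82, exact permutation p = 0.0333). Mmp3 was the next (r = 0.90, permutation p = 9e-05, adjusted p = 0.00121; rho = 0.82, permutation p = 0.00171), with r = 0.73 without the same libraries. Within the groups its r was 0.98 with vehicle and 0.79 with GA (exact permutation p = 0.00139 and 0.0319).

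Mmp9 (r = 0.84, adjusted permutation p = 0.00567), Mmp14 (r = 0.80, adjusted permutation p = 0.0113), Mmp10 (r = 0.79, adjusted permutation p = 0.0113) and Mmp2 (r = 0.73, adjusted permutation p = 0.0214) also had their highest r with Col1a1. Their rho values were 0.87, 0.73, 0.70 and 0.67. Without vehicle libraries 4 and 5 the r values were 0.56, 0.46, 0.48 and 0.45 and the rho values 0.77, 0.54, 0.48 and 0.45, so the ranks of Mmp9 kept more of the relation than its r. With Col3a1 as the stromal reference gene, the relations of Mmp10 (adjusted permutation p = 0.0837) and Mmp14 (adjusted permutation p = 0.0747) were no longer called.

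Timp2 (r = 0.49 with Col1a1, permutation p = 0.105) and Timp3 were not placed with any of the 3. The largest relation of Timp3 was negative, with Krt14 (r = -0.63, permutation p = 0.0276, adjusted p = 0.0744). By rank it was rho = -0.78 (permutation p = 0.00425, adjusted p = 0.0191). Within the GA group r was -0.85 (exact permutation p = 0.0361) and within the vehicle group -0.37 (exact permutation p = 0.506).

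Mmp13 was the member nearest to the epithelium, with r = 0.82 with Krt14 (permutation p = 0.00129, adjusted p = 0.00871; rho = 0.85, permutation p = 0.00075). The r was 0.88 without vehicle libraries 4 and 5 and 0.71 without GA libraries 1 and 5, the farthest from the Krt14 median. The relation was also present within the GA group (r = 0.91, exact permutation p = 0.00139) and, in size, within the vehicle group (r = 0.81, exact permutation p = 0.0514). Its relation with Col1a1 (r = 0.72) went down to 0.26 without vehicle libraries 4 and 5. The placement of Mmp13 depended on the scale and on the reference gene. With Krt5 in place of Krt14 the call was lost (r = 0.62, adjusted permutation p = 0.0837), as it was on linear FPKM (r = 0.52, adjusted permutation p = 0.134). With a pseudocount of 1, r was higher with Col1a1 (0.80) than with Krt14 (0.70). Mmp10 had r = 0.76 with Krt14 (permutation p = 0.00432, adjusted p = 0.0167; rho = 0.84), close to its r with Col1a1, and 0.69 without vehicle libraries 4 and 5. By the rule it was placed with Col1a1 over all 12 libraries. Over the other 10 its highest r was with Krt14, but the adjusted p was not below 0.05 and it was not placed.

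No member was placed with S100a9. Mmp9, the gelatinase stored in neutrophil granules, had r = 0.33 with S100a9 (permutation p = 0.288) and 0.89 with the mean of Cxcr2, Csf3r and Retnlg (permutation p = 0.0003; rho = 0.69), which became 0.61 without vehicle libraries 4 and 5. The member nearest to these 3 neutrophil genes was Mmp3 (r = 0.97, permutation p = 1e-05, the smallest possible; rho = 0.94), with r = 0.90 without those libraries and r = 0.98 within each group. Timp1 followed (r = 0.94 and, without those libraries, 0.88). The 3 neutrophil genes and Col1a1 had r = 0.94 with each other, so neutrophil and collagen signals cannot be told apart in these libraries. Taking the 3 genes in place of S100a9 raised the count of relations with an adjusted p below 0.05 from 9 to 17 of 27. These 3 were chosen after the data were seen from 7 listed neutrophil genes, without S100a8, Mmp8 and Ly6g. Each had its highest levels in vehicle libraries 5 and 4, where 5 of the 9 members were also highest. The higher count is therefore a description that depends on this choice. By rank, Mmp10, Mmp13 and Mmp14 followed the 3 genes less closely (rho = 0.49, 0.48 and 0.51, permutation p = 0.112, 0.123 and 0.0932). Their r values with the 3 genes were 0.81, 0.77 and 0.78, and 0.47, 0.29 and 0.25 without vehicle libraries 4 and 5.

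**Figure D4:**
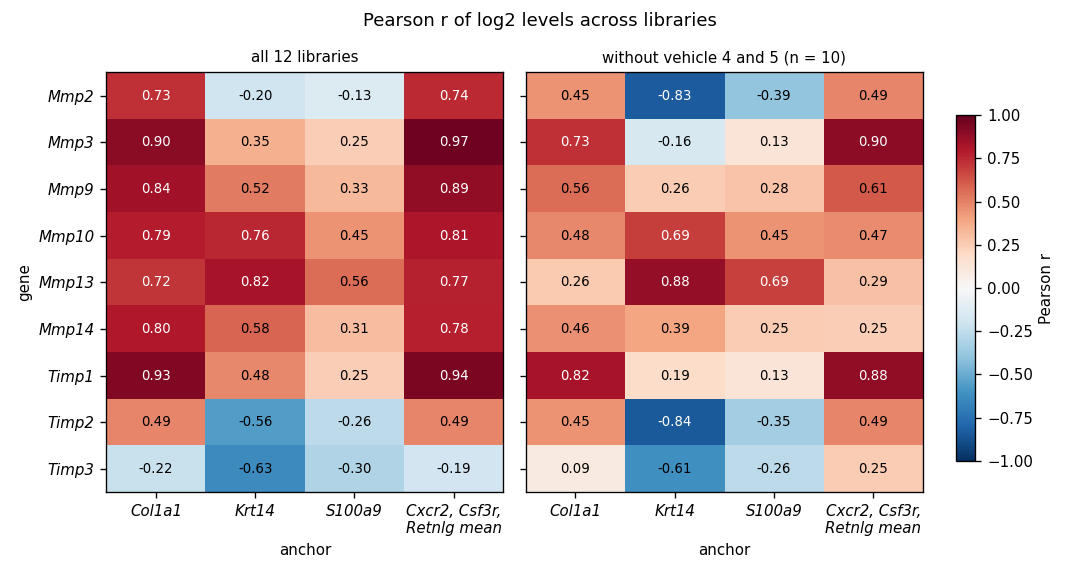
Pearson r of the log2 level of each gene with Col1a1, Krt14, S100a9 and the mean of 3 neutrophil genes, over all 12 libraries (left) and over the 10 without vehicle libraries 4 and 5 (right), on a scale from -1 (blue) to 1 (red). Timp1 and Mmp3 stay high with Col1a1 and with the neutrophil genes on the right, Mmp13 stays high with Krt14, and Mmp2 and Timp2 turn to -0.83 and -0.84 with Krt14.

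When vehicle libraries 4 and 5 were left out, 4 of the 27 relations had an adjusted p below 0.05. They were Mmp13 with Krt14 (permutation p = 0.00065, adjusted p = 0.0175), Timp1 with Col1a1 (permutation p = 0.00308, adjusted p = 0.0286) and the negative relations of Mmp2 and Timp2 with Krt14 (r = -0.83 and -0.84, permutation p = 0.00423 and 0.00341, adjusted p = 0.0286 for both). Over all 12 libraries the r of Mmp2 with Krt14 was -0.20 (permutation p = 0.546) and that of Timp2 was -0.56 (permutation p = 0.0628). Within the GA group they were -0.85 and -0.89 (exact permutation p = 0.0361 and 0.0306) and within the vehicle group 0.77 and 0.04. The difference between the groups was not tested. GA library 6 had the highest Krt14 and the lowest Mmp2 and Timp2 of the 12. Without that library alone, r over the other 11, vehicle libraries 4 and 5 included, was 0.23 for Mmp2 and -0.29 for Timp2, and without GA libraries 1 and 5 it was 0.02 and -0.43.

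The members also formed blocks among themselves. Of 36 pairs, 17 had an adjusted permutation p below 0.05, all with a positive r. The 15 pairs among Mmp3, Mmp9, Mmp10, Mmp13, Mmp14 and Timp1 were among them, with r from 0.78 to 0.96 over 12 libraries and from 0.29 to 0.90 without vehicle libraries 4 and 5. The clustered genes Mmp10 and Mmp13 were the closest (r = 0.96, adjusted permutation p = 0.00018; rho = 0.91), with r = 0.90 without those libraries, whereas Mmp3, which lies between them, had r = 0.41 with Mmp10 and 0.29 with Mmp13 in the same 10. Mmp9 went with Mmp14 (r = 0.94) and with Timp1 (r = 0.91), and with 0.79 and 0.83 without vehicle libraries 4 and 5.

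Mmp2 and its partner in activation, Timp2, went together (r = 0.86, permutation p = 0.00058, adjusted p = 0.00261; rho = 0.85), and r was 0.94 without vehicle libraries 4 and 5 and 0.99 within the GA group. The remaining pair with an adjusted p below 0.05 joined Mmp2 to Mmp3 (r = 0.71, adjusted permutation p = 0.02; rho = 0.69), with r = 0.39 without vehicle libraries 4 and 5. Mmp14, which completes the activation complex of Mmp2, had r = 0.41 with Mmp2 (adjusted permutation p = 0.287) and 0.03 with Timp2 (adjusted permutation p = 0.934). Without vehicle libraries 4 and 5 these r values were -0.32 and -0.39. Timp3 had an adjusted permutation p below 0.05 with 0 of the 8 other members, with r between -0.53 and 0.39.

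**Figure D5:**
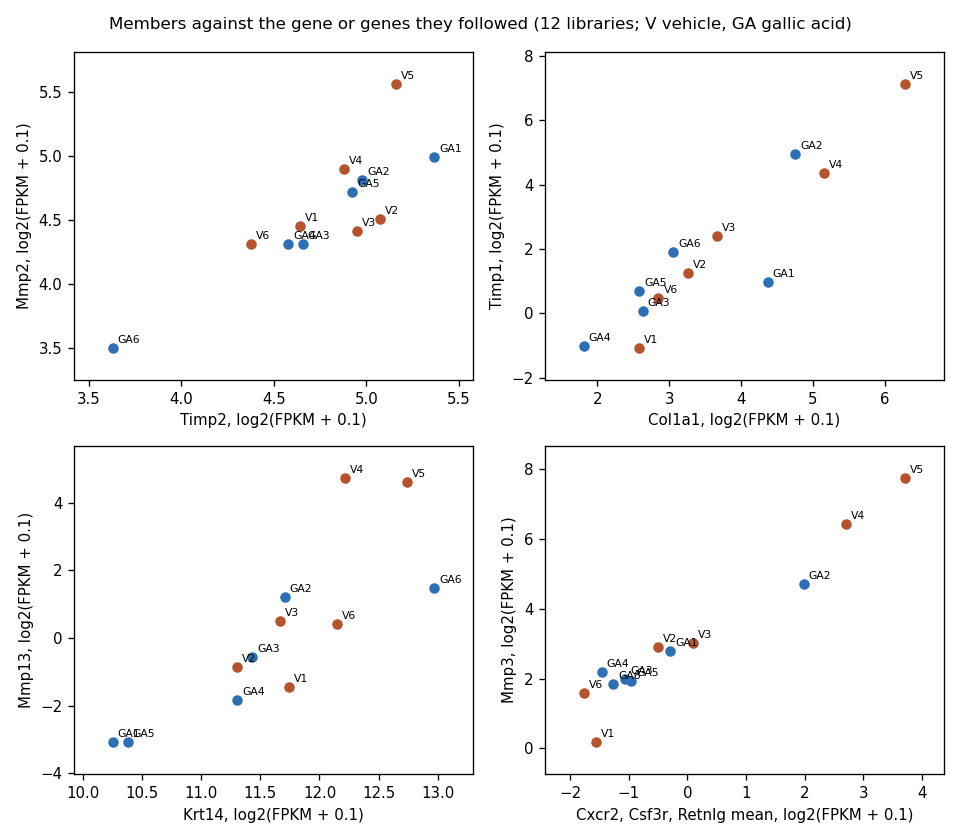
Log2 levels per library for Mmp2 against Timp2, Timp1 against Col1a1, Mmp13 against Krt14 and Mmp3 against the mean of Cxcr2, Csf3r and Retnlg, with vehicle libraries in red-brown and GA libraries in blue. Vehicle libraries 4 and 5 lie at the upper end of the Timp1, Mmp13 and Mmp3 plots, with GA library 2 beside them for Timp1 and Mmp3, and the remaining 10 libraries also slope upward in all 4 (r = 0.82 to 0.94).

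The genes whose pattern was most like each member were sought among 12139 genes averaging 1 FPKM or more, by Pearson r over the 12 libraries and as a description. Mmp3 was nearest to Fxyd5 (r = 0.97), to Acod1, the itaconate-producing enzyme of activated myeloid cells (r = 0.97), and to Csf3r, the receptor for the neutrophil growth factor (r = 0.96). Timp1 was nearest to the matricellular protein Spp1 (r = 0.97), to the epithelial-mesenchymal transition factor Snai1 (r = 0.97) and to Fndc3b (r = 0.97). Mmp10 was nearest to the matrix glycoprotein Tnc (r = 0.98), Cd14 and Dap (r = 0.97 each), and Tnc was also the third for Mmp13 (r = 0.96), after Smim3 (r = 0.98) and Irak3 (r = 0.96). Mmp9 was nearest to Dio2 (r = 0.96), Picalm (r = 0.96) and the neutrophil chemokine Cxcl3 (r = 0.94), and Mmp14 to Adam8, another membrane metalloproteinase (r = 0.96), Cpne2 (r = 0.96) and Nbas (r = 0.94).

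The abundant inhibitors had other neighbours. Timp2 was nearest to the elastic fibre protein Fbln5 (r = 0.95) and the scavenger receptors Scara5 and Scara3 (r = 0.94 and 0.93). Mmp2 was nearest to Nbl1 (r = 0.92), Serinc3 and Scarf2 (r = 0.91 each). For Timp3, Cutc (r = 0.95) and Klhl13 (r = 0.94) were among the nearest.

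Among 17 other MMPs, 11 passed the filter on low values and 0 were called. Of these 11, GA was higher in 6 and lower in 5 by the sign of the difference alone, and the median difference was 0.02 on the log2 scale. Without vehicle libraries 4 and 5 the split was 9 to 2 and the median 0.27. Mmp15, a membrane-type MMP, was the most abundant (7.16 ± 2.51 FPKM with vehicle and 6.87 ± 3.25 FPKM with GA, SD, n = 6 each), followed by Mmp28 (4.10 ± 0.673 and 4.39 ± 1.87 FPKM), Mmp19 (1.88 ± 2.45 and 1.04 ± 0.935 FPKM) and Mmp11 (1.27 ± 0.558 and 1.45 ± 0.416 FPKM). In the chromosome 9 cluster, chosen after the values were seen, Mmp12, the macrophage elastase, reached 4.22 FPKM in vehicle library 4 and 3.42 FPKM in vehicle library 5, with at most 1.34 FPKM elsewhere. Mmp8, the neutrophil collagenase, was 2.86 FPKM in vehicle library 5 and at most 0.501 FPKM elsewhere, whereas Mmp7 in the same cluster was at 0 in all 12.

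Of the other regulators of MMPs, the basigin gene Bsg, whose product induces MMPs in fibroblasts, was level across the libraries (143.4 to 166.1 FPKM), and 3 of 3 tested genes of this list had a positive difference, with a median of 0.18 and 0 calls (2 of 3 and 0.04 without vehicle libraries 4 and 5). In the plasmin axis, which activates MMP precursors, 7 of 8 genes were tested, with 2 positive and 5 negative differences, a median of -0.35 and 0 calls. Without vehicle libraries 4 and 5 there were 5 positive and 2 negative differences, with a median of 0.16. The most abundant gene was Serpinb2, an intracellular inhibitor of urokinase, at 81.9 ± 62.0 FPKM with vehicle and 67.1 ± 59.6 FPKM with GA (SD, n = 6 each), a difference of -0.33 on the log2 scale (standard error 0.49). Plau, the urokinase that generates plasmin, was at 50.5 ± 19.0 FPKM with vehicle and 30.1 ± 11.7 FPKM with GA (SD, n = 6 each), and the vehicle median exceeded 6 of 6 GA libraries. It differed by -0.74 on the log2 scale (standard error 0.31), with an unadjusted limma p below 0.05 that did not survive adjustment over all genes, and by -0.48 (standard error 0.34) without vehicle libraries 4 and 5.

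The AP-1 family, whose letters were shown in 3 of the promoters, had 8 of 8 genes tested, with 7 negative and 1 positive difference, a median of -0.29 and 0 calls (6 negative, 2 positive and -0.23 without vehicle libraries 4 and 5). Fos, named after its values were seen, was 16.1 ± 10.7 FPKM with vehicle and 6.18 ± 5.69 FPKM with GA (SD, n = 6 each). It differed by -1.53 on the log2 scale (standard error 0.56), again with an unadjusted limma p below 0.05 that did not survive adjustment, and by -1.01 (standard error 0.58) without vehicle libraries 4 and 5. Its 2 highest libraries were vehicle 4 (34.2 FPKM) and vehicle 5 (21.7 FPKM). The study, with its own test, reported Fos as significantly downregulated by GA. The more abundant Junb (132.8 ± 33.0 and 116.1 ± 28.1 FPKM) and Jund (42.3 ± 7.65 and 35.4 ± 5.03 FPKM) had differences of -0.19 and -0.25 on the log2 scale, and Jun and Fosl2 of -0.36 and -0.34.

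Among 12 matrix substrates, 11 were tested, all with a negative difference (median -0.52) and 0 calls. Without vehicle libraries 4 and 5, 8 of the 11 were positive, with a median of 0.09. Among the most abundant were the laminin chain Lamb3 (-0.15 on the log2 scale, standard error 0.48) and the fibrillar collagens Col3a1 (-0.60, standard error 0.63) and Col1a1 (-0.76, standard error 0.67). Over all tested genes, 49.1% of the differences were negative with all libraries and 46.3% without those 2.

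Markers of the cell types were given the same fit, with 0 calls in any list. All 7 fibroblast genes (median -0.52), all 7 epithelial genes (median -0.17) and the 6 tested neutrophil genes (median -0.73) had a negative difference with GA, and all 5 skeletal muscle genes a positive one (median 0.57). The 3 tested gland genes were negative (median -2.17), the 4 endothelial genes positive (median 0.11), and the 5 macrophage genes divided into 3 positive and 2 negative (median 0.10). Without vehicle libraries 4 and 5, 4 of 7 fibroblast genes (median 0.09) and 4 of 6 neutrophil genes (median 0.26) were positive, with Col1a1 at 0.11 and Csf3r at 0.77. In the same fit 6 of 7 epithelial genes were negative (median -0.37), all 5 muscle genes positive (0.27), all 3 gland genes negative (-1.01), all 4 endothelial genes positive (0.29) and 4 of 5 macrophage genes positive (0.17). The summed fibroblast markers ranged from 77.8 to 324.8 FPKM with vehicle and from 43.4 to 235.1 FPKM with GA, with the maxima in vehicle library 5 and GA library 2. With Col1a1 as a covariate in the fit, the difference of Mmp3 was 0.08, that of Mmp9 0.08, that of Timp1 0.22 and that of Mmp13 -1.35 on the log2 scale. The part of these cell types in the differences was not tested further.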

How the data were processed

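RNA-seq of 6 vehicle and 6 GA tongue libraries was used as deposited. Per the methods and labels, RNA from 4NQO-exposed tongues was made into libraries with a SMARTer mRNA kit, reads were aligned to mm10 with HISAT2, and uniquely mapped reads were counted per gene with featureCounts. The annotation release and strand setting are not given in the sources used here. The authors deposited FPKM values, and no counts were analysed here. Of 55463 rows, 22965 (41.4%) carried no gene name and were left out.

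Reads were recovered from FPKM with exon lengths of GENCODE M21 and a length offset fitted per library (17.0 to 24.2 bases), and 97.8% to 98.3% of values of up to 8 reads came within 0.02 of a whole number. These reads gave totals and an alternative fit (limma voom, 0 calls) only. Libraries were brought to 1 scale with trimmed means of log ratios, unweighted (factors 0.914 to 1.08). The 16852 genes averaging 0.1 FPKM or more entered limma 3.58.1 (R 4.3.3, with trend) on log2(FPKM + 0.1) with Benjamini-Hochberg adjustment. A call needed an adjusted p under 0.1 with a log2 fold change of 0.58 or more in size. These are the study's own limits, but the study applied them to edgeR's quasi-likelihood framework, so the counts of called genes are not alike. Single genes were compared by exact permutation of all assignments (smallest possible p = 0.00216). Correlations used 100000 resamples, or all orders within a group of 6, adjusted over 27 relations, 36 pairs or 21 marker relations, in Python 3.11.15 with numpy 2.4.6. The scripts were tested on simulated data. Whether libraries are separate mice is not stated beyond their replicate numbers, so p-values measure the spread between these libraries. The confidence intervals come from the limma fits and likewise measure the spread between libraries. Limits from 3 reads cover counting error only.

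The text names all 9 members, the 3 reference genes, for each member the 3 genes with the highest r, at most 4 genes of each list, those with the largest mean, and the markers set against the reference genes. Fos, the genes of the chromosome 9 cluster and the markers shown were chosen after their values were seen. A few genes that this rule would name are not reported here. A member was placed with the reference gene of its highest r where the adjusted p was below 0.05. Members, lists and tests were chosen with earlier results of these data known. Same-numbered libraries were checked for pairing (correlation of deviations -0.37 to 0.08), and the numbers were not taken as pairs. Alternatives covered pseudocount, filter, scaling, robust variance, replicate block, covariates, reference genes and each library left out. Promoter sequences came from RefSeq, GRCm38.p6.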

Additional observations from a re-analysis of the deposited data

Results flagged for a closer look

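In groups of 6, a library was marked when its gap to the nearest other exceeded Dixon's critical share of the group's range. Over 24 groups (9 members and 3 reference genes in 2 groups), 1 was marked on the log2 scale and 5 on the FPKM scale, where chance marks about 1 in 20. On the log2 scale this was Mmp3 in GA library 2 (26.3 FPKM, gap 0.668 of the range), which was also marked on the FPKM scale (0.852). The others were Timp1 in vehicle library 5 (140.2 FPKM) and in GA library 2 (30.6 FPKM), Mmp2 in vehicle library 5 (47.4 FPKM) and Krt14 in GA library 6 (8021 FPKM). Since vehicle libraries 4 and 5 were high together, the rule did not mark Mmp3, Mmp9, Mmp10 or Mmp13 in the vehicle group.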

How the results depend on the processing

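With 6 libraries a group, the intervals of Mmp3, Mmp9, Mmp10, Mmp13 and Timp1, which spread over 2 orders of magnitude, span more than 8-fold. Their lowest values rest on 0 to 34 reads. No member was called in any fit, and the count of called members stayed at 0 with the replicate block (0 genes called in all) and in each other setting. The number of genes called over all tested was 0 except for 1 without vehicle library 4 (range 0 to 1 when single libraries were left out) and 1 without vehicle libraries 4 and 5, and 364 genes had an unadjusted p below 0.05. Mmp13 reached an unadjusted limma p below 0.05 with a term for Y-linked reads (-3.33 on the log2 scale), without vehicle library 1 (-2.85) and without GA library 6 (-2.79). Across these settings, 17 log2 fold changes of members changed sign. Without vehicle libraries 4 and 5 these were Mmp2 (0.019), Mmp3 (0.65), Mmp9 (0.67), Mmp10 (0.21), Mmp14 (0.19) and Timp1 (0.51). With a Col1a1 term they were Mmp3 (0.084), Mmp9 (0.084), Mmp14 (0.033) and Timp1 (0.22), with a term of 3 neutrophil genes Mmp3 (0.030), Mmp9 (0.023), Mmp14 (0.00083) and Timp1 (0.078), with a Krt14 term Mmp14 (0.022), and with the term for Y-linked reads Timp2 (0.033). Timp2 ranged from -0.29 to 0.053 when single libraries were left out, the positive value being that without GA library 6. The count of relations with an adjusted p below 0.05 was 9 of 27, ranged from 5 (without vehicle library 5) to 10 when single libraries were left out, and was 4 without vehicle libraries 4 and 5, 17 with the 3 neutrophil genes in place of S100a9, and 0 without the 2 libraries farthest from each reference gene's median. It was 6 with the reference genes Col3a1, Krt5 and S100a8, which ended the calls of Mmp10, Mmp13 and Mmp14, and 7 on linear FPKM. The 2 neighbours in the order of levels that differed beyond their spread became 1 when GA library 2, GA library 5 or vehicle library 2 was left out (range 1 to 2). The causes were not tested.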
